A study of Homo sapiens with 6 samples.

Results

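The genes described here encode the nuclear share of the 5 complexes of the respiratory chain. Members were the rows whose gene names begin as those of the subunits do (NDUFA, NDUFB, NDUFC, NDUFS and NDUFV with a number, SDHA to SDHD, UQCR, CYC1, COX4 to COX8 and ATP5), without NDUFA4L2 and without pseudogene names. This gave 92 of 45019 rows, of which 83 are subunits: 36 of complex I, 4 of complex II, 9 of complex III, 17 of complex IV and 17 of complex V. The other 9 are the near-identical copy UQCRHL, the supercomplex factor COX7A2L, the inhibitor ATP5IF1, the gene ATP5MGL, 2 readthrough genes and 3 noncoding neighbours. The RNA came from MDA-MB-468, an established human line of triple-negative breast cancer in which the EGFR gene is amplified, and total RNA was sequenced. The treated group received 100 µM DETA/NO, a donor that releases nitric oxide slowly into the medium, for 10 days, and the other group is labelled untreated, with no vehicle named, and was sampled on the same day. The series compares the 2 groups to find transcripts that change with long exposure to nitric oxide. Each group had 3 labelled samples, but DETA/NO replicates 1 and 2 had the same value in all 45019 rows of their files and were counted as 1 library. Thus n = 2 for DETA/NO (the shared library 1 and 2, then library 3, in the order of the values below) and n = 3 for untreated cells (libraries 1, 2 and 3). The labels do not say that the libraries came from separate cultures, and dishes of a replicate were combined at each replating, so that p-values measure the spread between these libraries only, which may be technical.

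The respiratory chain sits in the inner mitochondrial membrane. Complex I takes electrons from NADH and complex II from succinate, both pass them to coenzyme Q, complex III hands them on to cytochrome c, and complex IV reduces oxygen to water. Complexes I, III and IV pump protons, and complex V, the ATP synthase, uses the returning protons to make ATP. A small set of subunits is made inside mitochondria from their own genome, and the rest, including all of complex II, is encoded in the nucleus and imported. Nitric oxide is known to bind the haem and copper centre of complex IV and to modify iron-sulfur clusters and cysteines of other complexes. Many nuclear genes of the chain have binding sites for the transcription factors NRF1 and GABP, an ETS factor, close to their start.

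The 250 bases before the start of transcription are shown for called subunits with small adjusted p in each direction, NDUFA5 and NDUFA4 (lower) and NDUFS8 and SDHB (higher), and for NDUFA6, whose window also holds the start of the noncoding neighbour NDUFA6-DT. Capitals mark GCATGCGC, letters of the NRF1 motif, and CCGGAAG, letters of the ETS motif that GABP binds, each searched on both strands, so that GCGCATGC is the NRF1 motif read on the other strand. The sequences are from RefSeq, build GRCh38.p14, and are written 5′ to 3′ on the strand of the gene. The windows are chr7:123557819-123558068, minus strand, for NDUFA5, chr7:10940154-10940403, minus strand, for NDUFA4, chr11:68030431-68030680, plus strand, for NDUFS8, chr1:17054033-17054282, minus strand, for SDHB, and chr22:42090773-42091022, minus strand, for NDUFA6. They are set from the RefSeq start, and GENCODE places the outermost start of each gene inside its window, or for NDUFA5 upstream of it.
NDUFA5: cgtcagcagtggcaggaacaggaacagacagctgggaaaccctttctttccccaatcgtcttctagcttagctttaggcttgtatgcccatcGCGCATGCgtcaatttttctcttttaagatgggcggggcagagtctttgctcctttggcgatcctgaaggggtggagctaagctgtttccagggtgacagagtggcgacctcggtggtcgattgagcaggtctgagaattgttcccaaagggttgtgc
NDUFA4: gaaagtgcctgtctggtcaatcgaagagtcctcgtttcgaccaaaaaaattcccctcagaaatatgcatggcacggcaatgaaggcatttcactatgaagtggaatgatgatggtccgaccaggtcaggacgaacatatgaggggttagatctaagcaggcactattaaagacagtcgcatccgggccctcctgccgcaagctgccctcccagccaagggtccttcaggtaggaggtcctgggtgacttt
NDUFS8: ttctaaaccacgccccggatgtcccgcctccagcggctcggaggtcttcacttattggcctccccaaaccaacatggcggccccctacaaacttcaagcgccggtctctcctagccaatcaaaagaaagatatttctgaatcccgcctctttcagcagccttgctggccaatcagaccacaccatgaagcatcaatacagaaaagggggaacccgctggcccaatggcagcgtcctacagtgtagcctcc
SDHB: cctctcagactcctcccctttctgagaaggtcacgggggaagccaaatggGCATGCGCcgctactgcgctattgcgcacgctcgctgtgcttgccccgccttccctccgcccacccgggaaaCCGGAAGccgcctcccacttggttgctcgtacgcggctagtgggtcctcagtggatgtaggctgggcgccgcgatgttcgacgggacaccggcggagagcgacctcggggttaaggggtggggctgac
NDUFA6: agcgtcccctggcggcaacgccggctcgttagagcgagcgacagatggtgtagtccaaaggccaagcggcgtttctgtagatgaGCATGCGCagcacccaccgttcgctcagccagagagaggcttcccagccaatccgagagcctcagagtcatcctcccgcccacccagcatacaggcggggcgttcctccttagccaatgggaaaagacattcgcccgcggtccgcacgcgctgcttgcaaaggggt

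The NRF1 letters began 158 bases before the start of NDUFA5, 200 bases before that of SDHB and 166 bases before that of NDUFA6. The ETS letters began 128 bases before the start of SDHB. Neither set of letters was in the windows of NDUFA4 and NDUFS8. RefSeq promoters were matched for 52 of the 64 tested subunits, and 11 of these (21.2%) held the NRF1 letters, against 2.63% of all 35116 promoters of the same length. The ETS letters were also in 11 of 52 (21.2%), against 8.52% of all promoters. For each subunit 1 start was chosen, whereas all promoters were taken without such a choice and without a match for gene type. The sets are thus unlike, and the difference was not tested. Among the promoters of called subunits, the NRF1 letters were in 1 of 5 subunits that were higher in DETA/NO (SDHB) and in 3 of 8 that were lower (NDUFA5, NDUFB4 and ATP5MC2), and in 7 of 39 that were not called. The ETS letters were in 2 of 5 (SDHB and ATP5MD), 1 of 8 (NDUFS1) and 8 of 39 of the same groups. The motif is thus found before genes that rose, genes that fell and genes that were not called. These matches are a description of the letters, and no binding was measured.

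Recovered read totals were 28897422 and 34210950 in the DETA/NO libraries and 32872785 to 34637343 in the untreated libraries. All 8 markers of a breast epithelial line were detected in every library, and their summed normalized reads were 409289 and 416314 in DETA/NO and 379167 to 386206 in untreated libraries. EGFR (log2 fold change 0.15) and KRT5 (0.24) were called higher and KRT19 (-0.18) lower, EGFR not under quantile normalization, KRT5 not without DETA/NO library 3, and neither keratin with limma without trend and robust settings. Of the markers of other cell types, 1 of 7 fibroblast genes, 3 of 7 immune genes and 5 of 5 endothelial genes passed the filter on low values, and the immune marker CD68 was listed at 0 in every library. Their summed normalized reads were 845 to 851 in DETA/NO and 592 to 642 in untreated libraries for the fibroblast list, 463 to 532 in DETA/NO and 955 to 1032 in untreated libraries for the immune list, and 522 to 577 in DETA/NO and 332 to 368 in untreated libraries for the endothelial list. The fibroblast sum is nearly all COL1A1 and the immune sum mostly CD14, which was called lower (log2 fold change -1.15). The immune gene PTPRC went the other way, with 34.4 and 33.2 normalized reads in DETA/NO and 14.3, 8.83 and 16.6 in untreated libraries, and was called higher (1.33), while ITGAM was not called (-0.020). The endothelial genes CDH5, KDR and TEK were called higher, and VWF (0.40) and PECAM1 (-0.16) were not called. The sums of these lists differed between the groups, and their part in the results below was not tested. In bulk RNA, fewer cells of a type and less RNA per cell cannot be told apart.

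Most nuclear-encoded subunits differed little between cells given DETA/NO for 10 days and untreated cells. Of 69 members with a mean of at least 10 normalized reads, 8 were higher and 11 lower in DETA/NO (limma, Benjamini-Hochberg adjusted p under 0.05 over 16409 genes). That is 11.6% higher and 15.9% lower, where 21.7% of all tested genes were called higher and 21.7% lower. In either direction 27.5% of tested members were called, against 43.4% of all tested genes. The changes were small: no tested member reached an absolute log2 fold change of 0.5, and 14 of the 19 called members stayed under 0.2. The median log2 fold change of tested members was -0.022, against -0.00016 for all tested genes, and the median absolute value was 0.084, against 0.18. Members and all tested genes were not matched for level. With a mean of at least 50 normalized reads, 9 of 65 members were higher and 12 lower. At that filter 25.7% of all tested genes were higher and 25.4% lower. The libraries of the 2 groups did not overlap in 40 of 69 members (58.0%), against 61.2% of all tested genes. Of these, 17 lay higher and 23 lower, where 30.4% of all tested genes lay higher and 30.8% lower. Without untreated library 2 or DETA/NO library 3, 5 members were called higher (19.1% and 18.1% of all tested genes), and when the shared DETA/NO library 1 and 2 was left out, 4 were called lower (17.1% of all tested genes). edgeR on the recovered reads called 8 higher and 11 lower (21.8% and 20.9% of all tested genes), DESeq2 5 and 6 (17% and 15.6%), and limma without trend and robust settings 2 and 5 (13.8% and 15.2%).

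**Figure D1:**
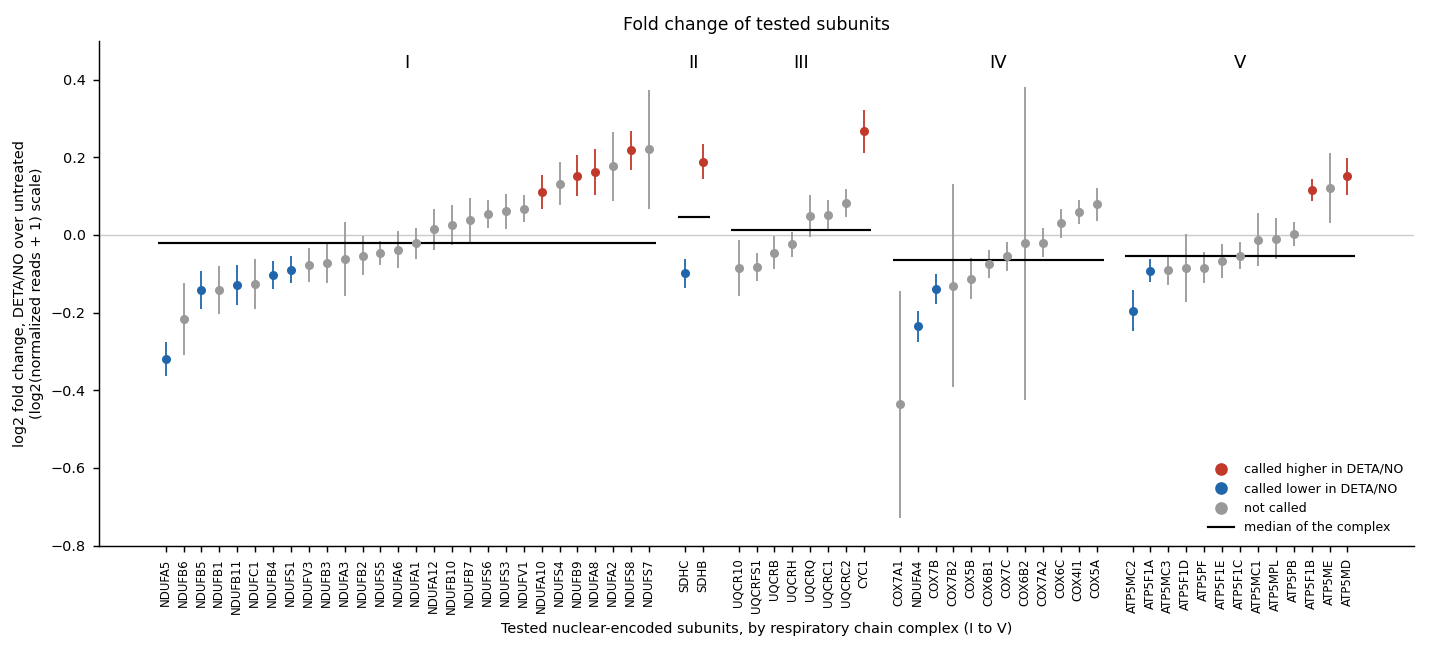
Log2 fold change (y axis, on the log2(normalized reads + 1) scale) of DETA/NO over untreated for 63 of the 64 tested nuclear-encoded subunits (x axis), grouped by complex I to V. Points are estimates, vertical bars are 1 SE, red and blue mark subunits called higher and lower, and black lines are the medians of the complexes over all 64, which lie between -0.065 (complex IV) and 0.045 (complex II).

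Called subunits of complexes I, II and V went in both directions, that of complex III was higher and those of complex IV lower. The median log2 fold change was -0.022 over 29 tested subunits of complex I, 0.045 over 2 of complex II, 0.013 over 8 of complex III, -0.065 over 12 of complex IV and -0.053 over 13 of complex V. Complex I had 4 called higher and 5 lower, complex II 1 and 1, complex III 1 and 0, complex IV 0 and 2, and complex V 2 and 2. Over all tested genes, 21.7% were called higher and 21.7% lower. The directions given for complexes III and IV rest on 1 and 2 calls. The members together took 0.481% and 0.478% of all normalized reads in the DETA/NO libraries, against 0.489%, 0.487% and 0.486% in the untreated libraries, so the groups did not overlap but differed little. Complex IV took 0.0858% and 0.0847% in DETA/NO, against 0.0871%, 0.0878% and 0.0886% in untreated cells. For complex III the shares overlapped, with 0.0620% and 0.0629% in DETA/NO and 0.0623% to 0.0629% in untreated cells. In bulk RNA such shares give the balance of transcripts, not the number of assembled complexes. By limma, none of the 12 tested subunits of complex IV was higher, with 0 at an unadjusted p under 0.05 and 0 by edgeR or DESeq2. In complex III, 0 of 8 were lower, with 1 at an unadjusted p under 0.05 and 0 by edgeR or DESeq2.

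Complex I is the largest of the 5, and its subunits split between a conserved core, which carries electrons and pumps protons, and accessory subunits around it. Of 6 tested core subunits encoded in the nucleus, 1 was higher and 1 lower, with a median log2 fold change of 0.064. Of 23 tested accessory subunits, 3 were higher and 4 lower, with a median of -0.047. Among all tested genes, 21.7% were called higher and 21.7% lower. NDUFA5, an accessory subunit of the matrix arm (chromosome 7, 123536997 to 123558255, GRCh38), fell furthest among called members. It had 1618 and 1673 normalized reads in the DETA/NO libraries and 2100, 2043 and 2015 in the untreated libraries. Both DETA/NO libraries lay well below all untreated libraries. The means were 1646 ± 39.2 (SD, n = 2) in DETA/NO and 2053 ± 43.2 (SD, n = 3) in untreated cells, and the log2 fold change was -0.32 ± 0.043 (SE, adjusted p = 2.84e-07 with limma). This is a difference of -19.8%, and NDUFA5 was called under every alternative setting. The reference annotation names 12 pseudogenes of NDUFA5, and reads shared with such copies are uncertain.

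NDUFS8, a core subunit that holds iron-sulfur clusters next to the site where coenzyme Q is reduced (chromosome 11, 68030617 to 68036644), rose. It had 1479 and 1385 normalized reads in DETA/NO and 1258, 1187 and 1248 in untreated cells. The lower DETA/NO library still lay above every untreated library. The log2 fold change was 0.22 ± 0.050 (SE, adjusted p = 0.000638 with limma), and the call held in every alternative. NDUFS1, the large iron-sulfur subunit of the arm that oxidizes NADH, went the other way, with 3461 and 3541 normalized reads in DETA/NO against 3693, 3766 and 3718 in untreated cells. The difference was small (log2 fold change -0.090 ± 0.035, adjusted p = 0.0377) and was no longer called when any library other than untreated library 3 was left out. NDUFS7, another iron-sulfur core subunit, had low values, with 99.7 and 110 normalized reads in DETA/NO against 77.4, 101 and 92.4 in untreated cells, and was not called (adjusted p = 0.257). Of the exonic bases of NDUFS7, 65.9% lie inside the spans of other annotated genes, and the part of this in its level was not tested. NDUFV1, which binds FMN and takes the electrons from NADH, and NDUFS3 were not called, with log2 fold changes of 0.067 and 0.061.

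The NDUFB subunits belong to the membrane arm. Of 10 tested, 1 was higher and 3 were lower, with a median log2 fold change of -0.088. Among all tested genes, 21.7% were called higher and 21.7% lower. NDUFB4 had 2688 and 2697 normalized reads in DETA/NO and 2928, 2866 and 2884 in untreated cells, without overlap. Its log2 fold change was -0.10 ± 0.037 (adjusted p = 0.0242). NDUFB5 had 1185 and 1181 in DETA/NO and 1251, 1334 and 1334 in untreated cells (log2 fold change -0.14 ± 0.050, adjusted p = 0.0212), also without overlap. NDUFB11, whose gene is on the X chromosome, had 1078 and 1119 in DETA/NO and 1192, 1194 and 1217 in untreated cells (adjusted p = 0.0388). NDUFB9 moved in the other direction, with 1056 and 1081 in DETA/NO against 992, 942 and 948 in untreated cells (log2 fold change 0.15 ± 0.054, adjusted p = 0.0213). NDUFB6 had the most negative estimate of the group (-0.22 ± 0.092), with 262 and 252 normalized reads in DETA/NO and 313, 291 and 291 in untreated cells, and did not pass (adjusted p = 0.0570).

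Among the other accessory subunits, NDUFA8, which faces the intermembrane space, and NDUFA10, at the foot of the membrane arm, were called higher. NDUFA8 had 975 and 914 normalized reads in DETA/NO and 817, 831 and 885 in untreated cells (log2 fold change 0.16 ± 0.059, adjusted p = 0.0250). NDUFA10 had 2765 and 3088 in DETA/NO and 2611, 2782 and 2728 in untreated cells (adjusted p = 0.0401), and was the only called member whose groups overlapped. NDUFS4 and NDUFA2 lay above all untreated libraries without passing, with log2 fold changes of 0.13 ± 0.056 (adjusted p = 0.0544) and 0.18 ± 0.089 (adjusted p = 0.109). The most abundant member per length was NDUFS5, an accessory subunit, at 13037 normalized reads per kilobase of exon in DETA/NO and 13475 in untreated cells. It was not called (log2 fold change -0.047). The 11 tested accessory subunits of complex I not yet named were not called either and ranged from -0.14 (NDUFB1) to 0.054 (NDUFS6).
The smaller calls of complex I depended on single libraries. Without the shared DETA/NO library 1 and 2, 4 members of complex I lost a lower call (NDUFS1, NDUFB4, NDUFB5 and NDUFB11), and NDUFB9 and NDUFA8 lost a higher call. Without DETA/NO library 3, the same 4 lower calls, NDUFA10 and NDUFB9 were lost. Without untreated library 1, NDUFS1, NDUFB4, NDUFB11, NDUFA8 and NDUFA10 were no longer called. Without untreated library 2, NDUFS1, NDUFB5, NDUFB11, NDUFA8 and NDUFB9 were no longer called. Without untreated library 3, NDUFB11 was no longer called.

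**Figure D2:**
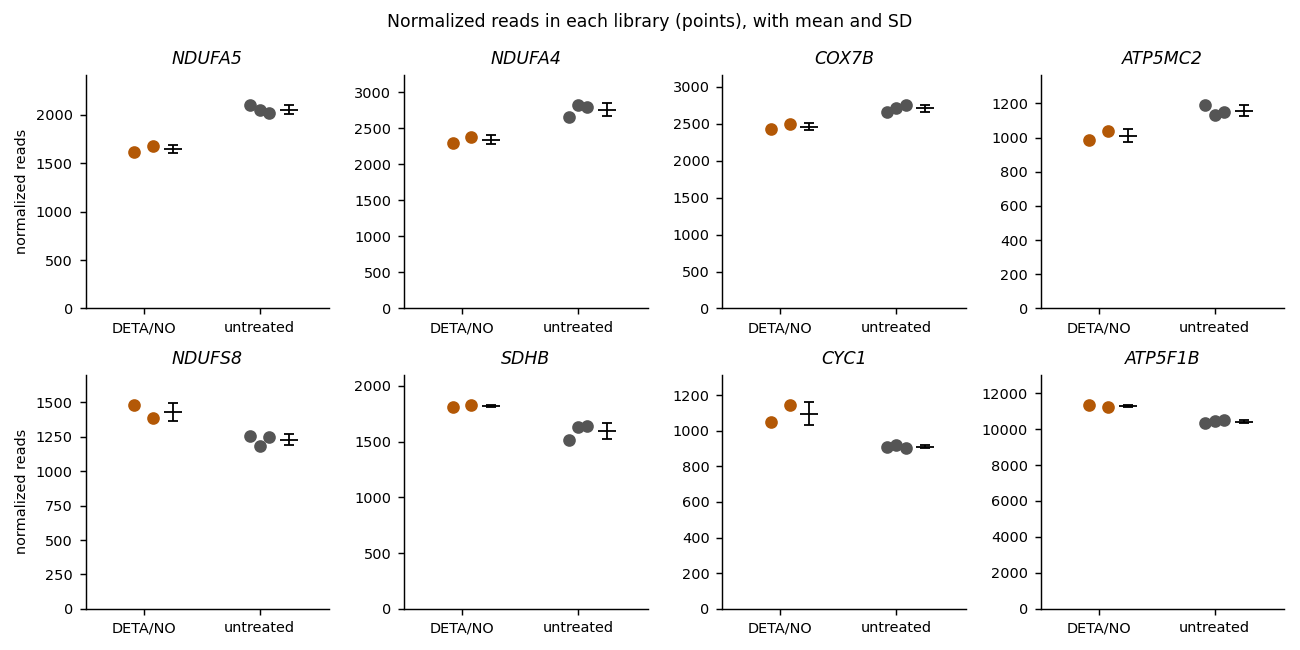
Normalized reads (y axes, from 0) of 8 members in each of the 2 DETA/NO and 3 untreated libraries, with the mean and SD beside the points. In the top row NDUFA5, NDUFA4, COX7B and ATP5MC2 lie below all untreated libraries in DETA/NO, and in the bottom row NDUFS8, SDHB, CYC1 and ATP5F1B lie above them.

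Complex II oxidizes succinate and is also an enzyme of the citric acid cycle. Its 4 genes could be compared only in part, since SDHA, the flavin-carrying catalytic subunit, was listed at 0 in every library and SDHD, a membrane anchor, at 0 in all but the shared DETA/NO library, where it had 1.11. The other catalytic subunit, SDHB, which holds iron-sulfur clusters (chromosome 1, 17018722 to 17054170), rose. It had 1813 and 1825 normalized reads in DETA/NO and 1515, 1631 and 1644 in untreated cells. All DETA/NO values lay above all untreated values, with means of 1819 ± 8.71 in DETA/NO (SD, n = 2) and 1597 ± 71.3 in untreated cells (SD, n = 3). The log2 fold change was 0.19 ± 0.046 (SE, adjusted p = 0.00117 with limma), and it stayed called without each library in turn. SDHC, the membrane anchor that binds haem together with SDHD, had 3341 and 3137 normalized reads in DETA/NO and 3589, 3391 and 3424 in untreated cells. Here the groups were apart by a narrow margin. SDHC was called lower (log2 fold change -0.099 ± 0.038, adjusted p = 0.0356), but not without untreated library 1 or without DETA/NO library 3.

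Complex III passes electrons from coenzyme Q to cytochrome c. CYC1, the haem-carrying cytochrome c1 (chromosome 8, 144095027 to 144097525), was its only called subunit encoded in the nucleus and had the highest called fold change of all members. It had 1050 and 1142 normalized reads in DETA/NO and 908, 919 and 903 in untreated cells. The untreated libraries lay close together and below both DETA/NO libraries. The log2 fold change was 0.27 ± 0.055 (SE, adjusted p = 0.000192 with limma), a difference of 20.5%, and the call held in every alternative. UQCRFS1, the Rieske iron-sulfur subunit, lay on the other side with 3121 and 3240 in DETA/NO against 3398, 3398 and 3305 in untreated cells, and did not pass (log2 fold change -0.082 ± 0.036, adjusted p = 0.0680). It was called lower under TMM scaling, under quantile normalization or without untreated library 3. The structural core proteins UQCRC1 and UQCRC2 had log2 fold changes of 0.051 and 0.082 and were not called, though for each the untreated libraries all lay below the DETA/NO libraries. The remaining 4 tested subunits, UQCR10, UQCRB, UQCRH and UQCRQ, ranged from -0.085 to 0.049 with overlapping groups.

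Complex IV had no subunit called higher and 2 called lower, and 2 uncalled subunits, COX4I1 and COX5A, lay above every untreated library in DETA/NO. NDUFA4 was first assigned to complex I by name and is now counted as a subunit of complex IV (chromosome 7, 10931951 to 10940256). It had 2300 and 2385 normalized reads in DETA/NO and 2657, 2822 and 2795 in untreated cells. The groups were clearly apart, with means of 2343 ± 60.1 in DETA/NO (SD, n = 2) and 2758 ± 88.6 in untreated cells (SD, n = 3). The log2 fold change was -0.24 ± 0.040 (SE, adjusted p = 1.32e-05 with limma), a difference of -15.1%, and NDUFA4 was called in every alternative. COX7B, a small accessory subunit encoded on the X chromosome, had 2426 and 2493 in DETA/NO and 2654, 2715 and 2754 in untreated cells. Its log2 fold change was -0.14 ± 0.039 (adjusted p = 0.00387), and it was not called without the shared DETA/NO library 1 and 2.

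Several complex IV subunits exist as alternative forms from different genes, which are set side by side here. COX4I1, the common form of subunit 4, had 7380 and 7251 normalized reads in DETA/NO and 6958, 7079 and 7048 in untreated cells, and was not called (log2 fold change 0.058 ± 0.031, adjusted p = 0.136). COX4I2, the form known from lung and from low oxygen, had 6.65 and 7.60 in DETA/NO and 4.78, 5.89 and 8.32 in untreated cells, under the filter. Per kilobase of exon the levels were 1527 normalized reads in DETA/NO and 1467 in untreated cells for COX4I1, against 10.3 in DETA/NO and 9.13 in untreated cells for COX4I2. COX6B1 had 3182 and 3122 in DETA/NO and 3270, 3312 and 3377 in untreated cells (adjusted p = 0.0974), and the testis form COX6B2 had 12.2 and 9.50 in DETA/NO and 7.65, 10.8 and 15.7 in untreated cells. COX7A2, the common form of subunit 7a, had a log2 fold change of -0.020. Its muscle form COX7A1 had 18.8 and 16.1 in DETA/NO and 24.8, 20.6 and 26.8 in untreated cells, and at this level the estimate of -0.44 ± 0.292 was not called (adjusted p = 0.240). COX6A1, COX6A2, COX8A and COX8C could not be compared, with at most 6.47 normalized reads in any library. Of the other uncalled subunits, COX5B and COX7C lay below all untreated libraries (log2 fold changes -0.11 and -0.055) and COX5A above them (0.079), while COX6C (0.030) and COX7B2 (-0.13) overlapped.
NDUFA4L2, a paralogue of NDUFA4 that is known to be induced in low oxygen and is not a member, was low at 21.1 and 35.1 in DETA/NO and 34.4, 40.2 and 47.1 in untreated cells (log2 fold change -0.55 ± 0.250, adjusted p = 0.0763). The groups overlapped, and it was called lower without DETA/NO library 3.

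Complex V, the ATP synthase, has a catalytic head (F1), a stalk and a membrane part with the turning c ring. Of 5 tested F1 subunits, 1 was higher and 1 lower, where 21.7% of all tested genes were called higher and 21.7% lower. ATP5F1B, the catalytic beta subunit (chromosome 12, 56638175 to 56646068), had 11320 and 11253 normalized reads in DETA/NO and 10341, 10428 and 10480 in untreated cells. With this depth the libraries of a group differed by little and the groups were apart. Its log2 fold change was 0.12 ± 0.029 (SE, adjusted p = 0.0016 with limma). ATP5F1A, the alpha subunit that alternates with beta in the head, went the other way, with 9005 and 9229 in DETA/NO against 9629, 9893 and 9624 in untreated cells. Its log2 fold change was -0.092 ± 0.030 (adjusted p = 0.0142), and the call was lost without untreated library 2 or the shared DETA/NO library 1 and 2. The other F1 subunits ATP5F1C, ATP5F1D and ATP5F1E had log2 fold changes of -0.053, -0.085 and -0.068 and were not called.

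The c ring is built from copies of a single protein that the genes ATP5MC1, ATP5MC2 and ATP5MC3 encode. ATP5MC2 had 985 and 1038 normalized reads in DETA/NO and 1191, 1131 and 1152 in untreated cells. All DETA/NO values lay below all untreated values, and the log2 fold change was -0.20 ± 0.053 (SE, adjusted p = 0.00301 with limma). The call was lost without the shared DETA/NO library 1 and 2. ATP5MC3 was also below all untreated libraries and did not pass (log2 fold change -0.091 ± 0.039, adjusted p = 0.0542), and ATP5MC1 had a log2 fold change of -0.012. ATP5MD, a small membrane subunit that holds ATP synthase dimers together, had 1607 and 1634 in DETA/NO and 1479, 1404 and 1495 in untreated cells. It was called higher (log2 fold change 0.15 ± 0.047, adjusted p = 0.00871), but not without untreated library 2 or DETA/NO library 3. Neither of the 2 tested stalk subunits was called by limma, edgeR or DESeq2 (1 had an unadjusted p under 0.05), and ATP5PB had 7380 and 7427 in DETA/NO against 7474, 7482 and 7233 in untreated cells (log2 fold change 0.002). The other stalk subunit, ATP5PF, and the membrane subunits ATP5MPL and ATP5ME had log2 fold changes of -0.084, -0.010 and 0.12 and were not called.

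Of the members that are not subunits, only NDUFA6-DT was called. It is a noncoding transcript that runs in the opposite direction from NDUFA6, with 160 bases between their RefSeq starts (chromosome 22, 42090931 to 42137742). NDUFA6-DT had 748 and 775 normalized reads in DETA/NO and 872, 897 and 946 in untreated cells. It lay below all untreated libraries, by -0.25 ± 0.059 on the log2 scale (SE, adjusted p = 0.000873 with limma), and was called in every alternative. NDUFA6 itself, an accessory subunit of complex I, had 1347 and 1362 in DETA/NO and 1390, 1436 and 1348 in untreated cells, with overlapping groups (log2 fold change -0.038 ± 0.048, adjusted p = 0.558). The difference between the 2 neighbours was not tested. ATP5IF1, which blocks the ATP synthase from running backwards, lay above all untreated libraries at 1073 and 1101 in DETA/NO against 1038, 977 and 1008 in untreated cells, and did not pass (log2 fold change 0.11 ± 0.053, adjusted p = 0.101). COX7A2L, which joins complexes III and IV into supercomplexes, and UQCRHL, a near-identical copy of UQCRH, had log2 fold changes of 0.035 and -0.004.

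Iron-sulfur subunits are spread over 3 complexes and are known targets of nitric oxide as proteins. Of 6 tested subunits that hold such a cluster, NDUFS8 and SDHB were called higher and NDUFS1 lower, and the median log2 fold change was 0.13. Among all tested genes, 21.7% were called higher and 21.7% lower. The NDUFS1 call was lost with DESeq2 and without untreated library 1 or 2. The median includes the uncalled NDUFS7, whose estimate was imprecise (0.22 ± 0.153, SE), and NDUFV2 was not tested. Named pseudogenes were found for 36 of the 69 tested members, for 9 of the 11 called lower and for 4 of the 8 called higher. How reads that match several copies were counted is not given in the sources used here, and the part of such copies in the result was not tested.

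Of the 92 members, 23 had a mean under 10 normalized reads and were not tested, among them 19 subunits, and 15 members were listed at 0 in every library. Some of these encode subunits that every assembled complex needs, so a value at 0 here says only that the gene is listed at 0. Listed at 0 were NDUFA7, NDUFA9, NDUFB8 and NDUFC2 of complex I, SDHA of complex II, UQCR11 of complex III, COX8A and COX8C of complex IV, and ATP5MG, ATP5PD and ATP5PO of complex V, together with ATP5MGL, ATP5MF-PTCD1, NDUFB2-AS1 and NDUFV2-AS1. The other 8 untested members, NDUFV2, NDUFA11, NDUFA13, SDHD, COX4I2, COX6A1, COX6A2 and ATP5MF, had at most 11.4 normalized reads in any library (NDUFA13). The readthrough NDUFC2-KCTD14 passed the filter at 16.6 and 29.4 in DETA/NO and 20.1, 14.7 and 14.8 in untreated cells and was not called. Of the 23 untested members, 20 had at least 80% of their exonic bases inside the spans of other annotated genes, against 2 of 69 tested members (ATP5MC1 and NDUFC2-KCTD14). The exceptions were SDHA and COX4I2, each with 0% of such bases, and COX6A2 with 46.0%. The counting settings are not given in the sources used here, and the part of overlapping annotation in these values was not tested. Counted over the 48 tested members with under 20% of such bases, 7 were higher and 7 lower. Over all tested genes, without that limit on overlap, 21.7% were called higher and 21.7% lower.

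**Figure D3:**
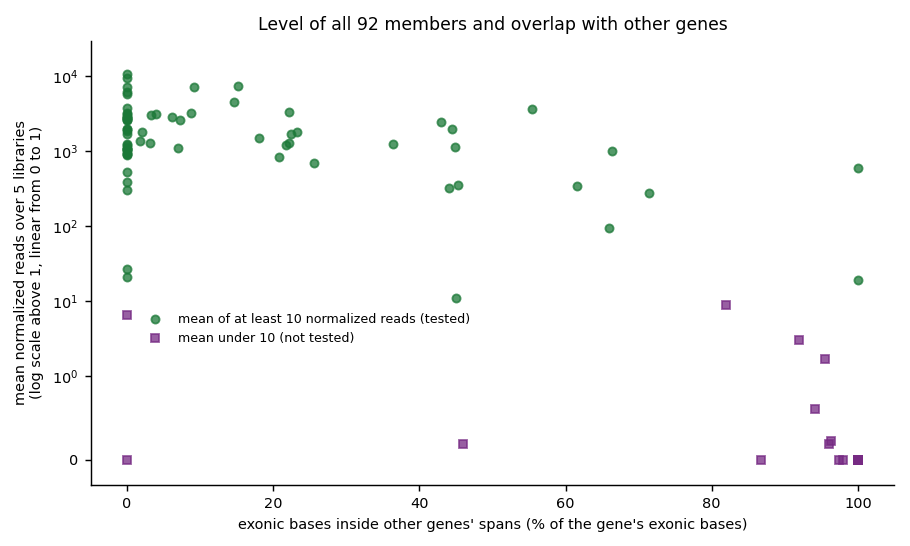
Mean normalized reads over the 5 libraries (y axis, log scale above 1 and linear from 0 to 1) of all 92 members against the percentage of exonic bases that lie inside the spans of other annotated genes (x axis). Of the 23 untested members (purple squares), 20 lie at or beyond 80%, against 2 of the 69 tested members (green circles).

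The mitochondrial genome encodes 13 subunits of complexes I, III, IV and V, and most of these were lower in DETA/NO. Of the 13, 10 were called lower and 2 higher, with a median log2 fold change of -0.19. Among all tested genes, 21.7% were called lower and 21.7% higher. Under quantile normalization, 7 were lower and 2 higher (22% and 20.9% of all tested genes). limma without trend and robust settings called 7 lower and 0 higher (15.2% and 13.8% of all tested genes). The 2 higher genes, MT-ND4 and MT-ND4L, both lost the call without untreated library 1 or DETA/NO library 3. MT-ND4L, unlike MT-ND4, also lost the call under TMM and upper quartile scaling, with edgeR and DESeq2, and without untreated library 2. For complex I the median was -0.12 over 7 mitochondrial genes, with 2 higher and 4 lower, beside -0.022 over the nuclear-encoded subunits. For complex IV it was -0.23 over 3 mitochondrial genes, all lower, beside -0.065. For complex V it was -0.43 over 2 genes, both lower, beside -0.053. MT-CYB, the only mitochondrial subunit of complex III, had a log2 fold change of -0.45, while CYC1 of the same complex was higher. The difference between the 2 sets was not tested. Their sum was 2177659 and 2330566 normalized reads in DETA/NO, against 2477424, 2594218 and 2542982 in untreated cells.

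**Figure D4:**
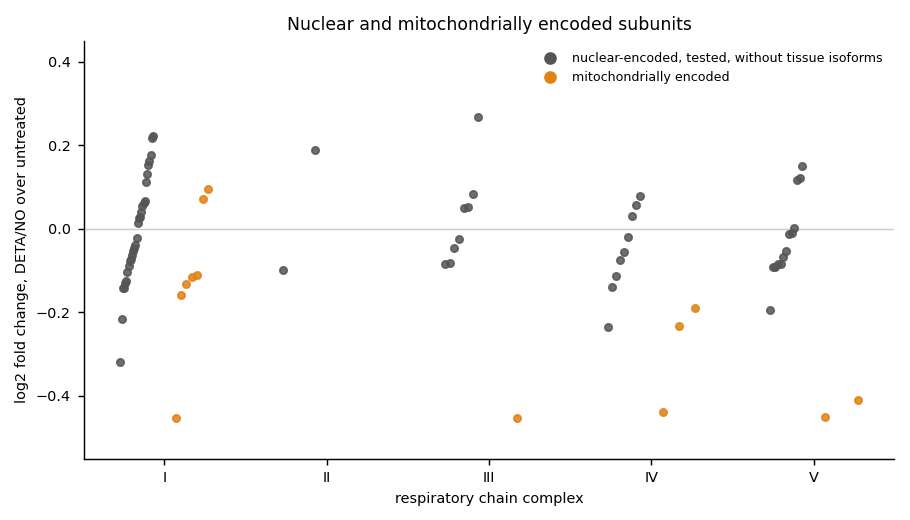
Log2 fold change of DETA/NO over untreated (y axis) for tested nuclear-encoded subunits without tissue isoforms (grey) and mitochondrially encoded subunits (orange), by complex (x axis, points spread sideways in order of value). Of the 13 mitochondrial genes 11 lie below 0, down to -0.45, whereas grey points lie between -0.32 and 0.27.

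Factors that assemble the complexes were called in both directions, where 21.7% of all tested genes were called higher and 21.7% lower. For complex I, 3 of 17 tested assembly factors were higher, among them ECSIT (0.18) and NDUFAF5 (0.14), and 3 were lower, among them NDUFAF6 (-0.15) and LYRM2 (-0.11), all as log2 fold changes. Without the shared DETA/NO library 1 and 2, 0 of the 17 were higher and 1 lower, and DESeq2 called 0 in either direction, where edgeR called 3 and 3. For complex II, 2 of 3 were lower: SDHAF4, which binds the flavin subunit during assembly, had 356 and 364 normalized reads in DETA/NO and 457, 442 and 457 in untreated cells (log2 fold change -0.33), and SDHAF3, which helps SDHB mature, had a log2 fold change of -0.39. SDHAF3 lost the call with DESeq2, with limma without trend and robust settings, and when any library other than untreated library 2 was left out. SDHAF4 was called in every alternative. For complex III, 0 of 6 were called by limma, with 0 at an unadjusted p under 0.05 and 0 by edgeR or DESeq2. For complex IV, 5 of 18 were higher, including LRPPRC (0.19), which stabilizes mitochondrial mRNAs, and COA7 (0.23), and 3 were lower, including COX20 (-0.52) and COA5 (-0.25). COX20, a chaperone of the mitochondrially made subunit COX2, had 235 and 224 in DETA/NO and 310, 338 and 341 in untreated cells, without overlap, and 72.0% of its exonic bases lie in other genes' spans. For ATP synthase, the assembly factor TMEM242 was lower (-0.23), though not without the shared DETA/NO library 1 and 2 or with DESeq2. The 1 higher call among the 6 tested genes of this list was NCLN (0.26), which encodes nicalin, a membrane protein of the endoplasmic reticulum that is not known to assemble or inhibit ATP synthase. Without NCLN, limma, edgeR and DESeq2 each called 0 genes of the list higher, and 1, the inhibitor ATP5IF1 (0.11), had an unadjusted limma p under 0.05.

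The mobile carriers and the enzymes that make coenzyme Q had 3 of 18 tested genes higher and 7 lower. Their median log2 fold change was -0.074. Of all tested genes, 21.7% were called higher and 21.7% lower. CYCS, which encodes cytochrome c itself, had 9068 and 9485 normalized reads in DETA/NO and 8245, 8293 and 7892 in untreated cells (log2 fold change 0.19 ± 0.032, adjusted p = 1.46e-05). Its direction was that of CYC1, its electron donor in complex III. COQ8B, an atypical kinase of coenzyme Q synthesis, was lower, with 674 and 750 in DETA/NO and 931, 945 and 959 in untreated cells (log2 fold change -0.41 ± 0.060, adjusted p = 1.18e-06). GPD2, which feeds electrons from glycerol 3-phosphate into coenzyme Q, was also lower (-0.22), and COQ3, a methyltransferase of coenzyme Q synthesis, higher (0.24), though not without DETA/NO library 3. Of 13 citric acid cycle enzymes, 3 were higher, including FH (0.16) and IDH3A (0.27), and 3 lower, including SUCLG2 (-0.41) and SUCLG1 (-0.27), which encode subunits of succinyl-CoA ligase, the enzyme that makes the substrate of complex II. All 3 higher calls of this list were lost with limma without trend and robust settings, whereas edgeR and DESeq2 each called 3 higher.

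Of 13 regulators of respiratory gene transcription, 6 were higher and 3 lower (21.7% and 21.7% of all tested genes). The median log2 fold change of these regulators was 0.12. DESeq2 called 3 and 2 of them. GABPA, the DNA-binding subunit of GABP, fell, with 3454 and 3550 normalized reads in DETA/NO and 4039, 3932 and 3886 in untreated cells (log2 fold change -0.17 ± 0.035, adjusted p = 0.000149). NRF1, named here because its motif was searched, was also lower, with 1392 and 1497 in DETA/NO and 1576, 1550 and 1638 in untreated cells (log2 fold change -0.14 ± 0.048, adjusted p = 0.0198), and lost the call without untreated library 3 or the shared DETA/NO library 1 and 2. SP1 was lower (-0.21), and PPRC1 (0.28) and CREB1 (0.21) were higher. PPARGC1A, the PGC-1 alpha coactivator, had 12.2 and 12.3 normalized reads in DETA/NO and 5.73, 14.7 and 12.9 in untreated cells, near the filter. Of the 4 tested genes linked to the chain in low oxygen, 3 were higher: BNIP3 (0.32), a mitophagy receptor, LONP1 (0.23), a matrix protease, and PDK1 (0.14), which holds back pyruvate entry into the citric acid cycle and was not called when DETA/NO library 3 or either of untreated libraries 2 and 3 was left out. The fourth, NDUFA4L2, had the lowest estimate of the list (-0.55) and was not called.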

How the data were processed

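Per the labels, total RNA was made into libraries with the KAPA RNA Hyper Prep kit. Each of the 6 files holds the authors' deposited normalized counts (signal), 1 per gene. The submitters' processing notes name TopHat2 2.1.1, Bowtie2 2.5.0.0, featureCounts 2.0.3, DESeq2 1.38.3, R 4.2.2 and GRCh38. The annotation and how strand and multi-mapping reads were treated are not given in the sources used here. Dividing a library by 1 factor made 100% of its values whole (tolerance 0.01), which gave the recovered reads. In each file 27 gene names had become dates.

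limma 3.58.1 (R 4.3.3, mean-variance trend, robust eBayes) was fitted to log2(value + 1) over all 16409 genes with a mean of at least 10, with DETA/NO replicates 1 and 2 averaged, and a gene was called where its Benjamini-Hochberg adjusted p was under 0.05. Fold changes on this scale understate those of low genes. The alternatives were edgeR 4.0.16 and DESeq2 1.42.0 on recovered reads, other scalings, filters and pseudocounts, and fits with a replicate block or without 1 library. On simulated counts (16409 genes, 50 changed at each size) the test found 44% of 1.2-fold, 78% of 1.5-fold, 88% of 2-fold and 100% of 4-fold changes, and 19 of its 174 calls were false. That share of false calls lies above the 0.05 set as the threshold. Members, lists and motif letters were chosen with earlier results of these data known. Named are up to 3 called subunits per direction and complex with the smallest adjusted p, complex II, paralogue forms, members at 0, and up to 2 called genes per direction of each list. Other members, and NRF1, PPARGC1A and PDK1, were named after their values were seen. All 92 members were found in GENCODE release 29 (GRCh38), which gave positions, exonic lengths, overlaps and pseudogene names. Some genes are not reported here by name. Promoters are from RefSeq, with the start nearest the GENCODE 5′ end.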

Additional observations from a re-analysis of the deposited data

How the results depend on the processing

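The directions of the called members did not turn under any alternative, and NDUFA5, NDUFA4, NDUFA6-DT, CYC1 and NDUFS8 were called in each. edgeR called 8 members higher and 11 lower, as limma did. limma without trend and robust settings called 2 higher and 5 lower (complex I 1 and 2, complex II 0 and 0, complex IV 1 lower, complex V 0 and 1), and DESeq2 called 5 higher and 6 lower (complex I 1 and 1, complex II 0 lower). The cause was not tested. Complex III had 1 lower under TMM scaling and 1 under quantile normalization, complex V had 4 lower under quantile normalization, and complex IV had 1 lower with NDUFA4 counted in complex I, an alternative chosen after seeing the data. Leaving out an untreated library gave 5 to 9 members higher and 7 to 13 lower, and leaving out a DETA/NO library 5 to 6 and 4 to 8. Over all tested genes the called shares then were 18.7% to 21.6% higher and 18.5% to 21.3% lower without an untreated library, and 17% to 18.1% higher and 17.1% to 18.5% lower without a DETA/NO library. Over all 5 libraries left out in turn, there were 2 to 5 higher and 1 to 4 lower in complex I, 0 to 1 lower in complexes II and III, 1 to 3 lower in complex IV, and 1 to 2 higher and 0 to 4 lower in complex V. The median log2 fold change of complex I was -0.030 under TMM scaling and with no filter, -0.038 under quantile normalization and -0.019 to 0.021 without each library, with the positive value when untreated library 3 was left out. That of complex II was 0.025 under quantile normalization, 0.189 with no filter, 0.039 to 0.051 without an untreated and 0.025 to 0.065 without a DETA/NO library, that of complex III -0.009 under quantile normalization, 0.001 to 0.012 without an untreated and -0.002 to 0.028 without a DETA/NO library, and that of complex V -0.041 to -0.035 without an untreated and -0.083 to -0.045 without a DETA/NO library. COX6B2, near the filter, ranged from -0.255 to 0.221 without an untreated library, the highest value being without library 3, and was 0.143 without DETA/NO library 3.

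Replicate numbers are the only link between groups that the labels give. Deviations of same-numbered libraries from their group means correlated at 0.0293, 0.00106 and 0.0301 across genes. The deviations of 2 DETA/NO libraries are mirror images, and the shared library 1 and 2 enters 2 of these values. They therefore cannot decide whether same-numbered libraries had a common culture or batch. With a replicate block, 9 members were called higher and 14 lower, against 23.1% higher and 22.9% lower over all tested genes, NDUFA4L2 was called lower, and the median of complex I was -0.026. With 2 distinct DETA/NO libraries, leaving out either leaves a lone library that is assumed to vary like the untreated ones. On simulated counts with 50 genes changed at each size, drawn from all levels, the test found 44% of 1.2-fold changes. In the data 43.4% of tested genes were called, so the simulated share is not the sensitivity for the members. For the same reason the simulation does not give the share of false calls among the members. Small changes among the uncalled members may go undetected.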
